A study of Homo sapiens with 16 samples.

Results

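The data described here are total RNA read counts from U251 glioblastoma cells transfected with a miR-137 mimic or with a control mimic. They comprise 4 of the 16 libraries of the series, 2 for each transfection, and were chosen by cell line and assay alone, without reference to any measured value. U251 is an established human glioblastoma line, and both groups received 25 nM of mimic and were harvested after 48 hours, so that the groups differ in the mimic and share the cell line, the dose and the transfection reagent. The other libraries are precipitations of poly(A)-binding protein and the same experiments in U343 cells, another glioblastoma line, of which only the 4 U343 total RNA libraries enter a comparison below. Nothing in the labels says that the replicates are separate cultures, so every p-value measures the spread between these libraries, which may be technical. A mimic at this dose is a gain of function in 1 transfected line. The endogenous miR-137 hairpin gene held 3 reads in control replicate 1 and 0 in the other libraries, and since these libraries count longer RNAs its reads are no measure of the mimic.

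miRNAs guide Argonaute proteins to partly complementary sites, mostly in 3′ untranslated regions, and lower the stability and translation of the RNAs that carry them. The main determinant of pairing is the seed, bases 2 to 8 from the 5′ end. miR-137 is abundant in neurons, rises during neuronal differentiation and is low in gliomas. The mature sequence in RefSeq (GRCh38.p14, chromosome 1, bases 98046091 to 98046113, minus strand) is the strand that pairs with target sites. It is shown with the seed in capitals. The sequence of the commercial mimic itself was not given.
hsa-miR-137-3p: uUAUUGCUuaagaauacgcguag

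Over 20314 genes, 16886287 and 18224061 reads were counted in the controls and 10260834 and 10156675 with miR-137. The deeper controls had a read on 16332 and 16568 genes and the shallower miR-137 libraries on 17645 and 16984. Olfactory receptor genes, of which 367 are in the tables and which glioma cells are not known to use, took 3.61 and 4.88 RPM (reads per 1000000 reads counted in the library) in the controls and 22.1 and 13.1 with miR-137, so reads on these genes were more frequent in the miR-137 libraries, and their part in the rises of genes with few reads was not tested. Of the 10 glioma and astrocyte markers 9 passed the filter on low counts and none was at 0 throughout, and their summed level was 11680 and 11660 RPM in controls and 6716 and 7125 with miR-137. Markers of endothelium, epithelium and oligodendrocytes summed to 0.0985 to 1.07 RPM in every library. The 6 markers of microglia and blood that were counted summed to 8.17 and 9.66 RPM in controls and to 96.2 and 89.4 with miR-137. This sum was mostly CD68, a lysosomal glycoprotein, with 119 and 172 reads in controls and 963 and 893 with miR-137, while the leukocyte gene PTPRC stayed under the filter. Whether the cells that carry these reads changed in number was not tested, and in bulk RNA a change in cells of a type cannot be told apart from a change in RNA per cell.

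The transcriptome changed widely with miR-137. Of 13052 genes that passed the filter, edgeR's quasi-likelihood test with TMM scaling (a trimmed mean of gene ratios) called 3780 lower, which is 29.0%, and 3749 higher, which is 28.7%, at a Benjamini-Hochberg adjusted p under 0.05. At least 2-fold, 1212 genes (9.29%) were called lower and 1708 (13.1%) higher. Upper-quartile scaling raised every log2 fold change by about 0.14, so the median gene stood at 0.16 in place of 0.02. It called 3001 genes lower (23.0%) and 4588 higher (35.2%), and at least 2-fold 919 lower (7.04%) and 2061 higher (15.8%). Of the genes lower under TMM, 779 lost the call under upper-quartile scaling and 839 genes gained a call as higher, but no gene was called in opposite directions. The rule of the study applies Fisher's exact test to each of the 4 pairings of one miR-137 library with one control, and asks every pairing for a more than 2-fold odds ratio with an adjusted p under 0.001. It took 448 genes as lower (2.21% of 20314) and, mirrored, 1248 as higher (6.14%). The larger the number of reads on a gene, the lower its fold change tended to be. In 5 groups of equal size by mean reads, the median log2 fold change under TMM was 0.52, 0.22, 0.05, -0.11 and -0.36 from the fewest to the most reads. For lists that lie mostly among genes with many or few reads, a median relative to genes of like read number is therefore also given, by subtracting the median of a gene's own group, a correction added after the data were seen.

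**Figure D1:**
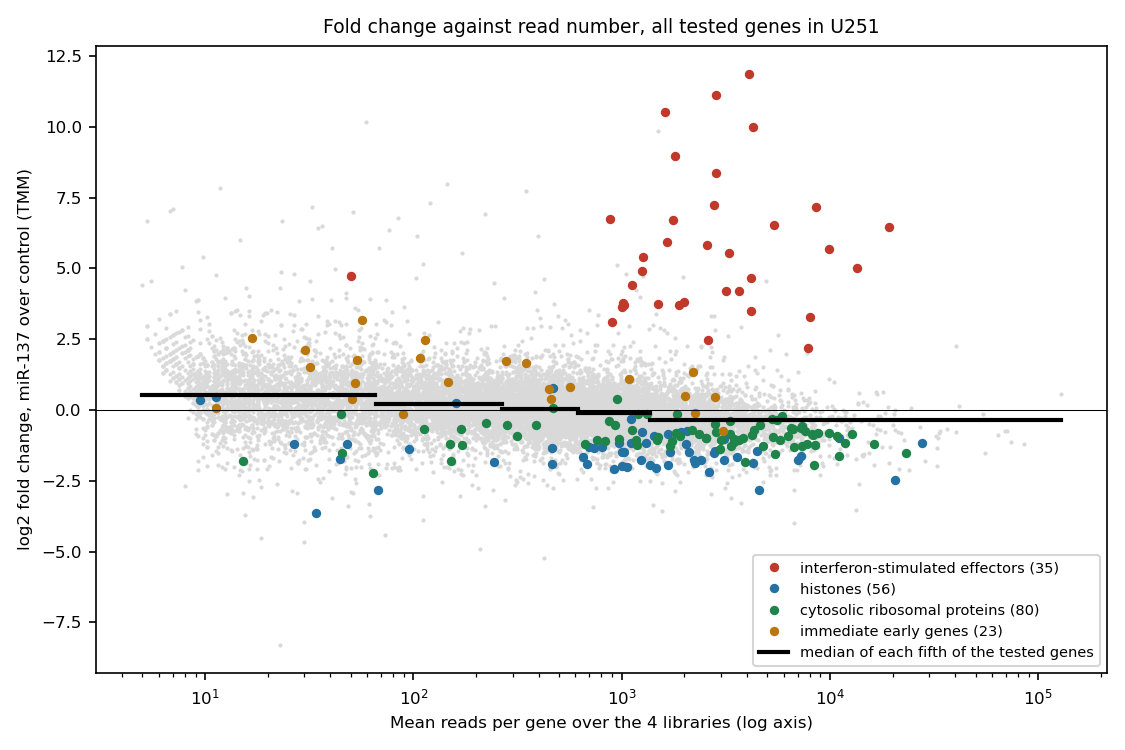
log2 fold change (miR-137 over control, TMM) of the 13052 tested genes against their mean reads over the 4 libraries on a log axis, with 4 gene lists in colour and the median of each of 5 read-number groups as a black bar. The medians decline from 0.52 to -0.36, the interferon-stimulated genes lie above them at high read numbers, and histones and ribosomal protein genes lie mostly below.

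The 70 gene lists examined were chosen with results of these data known, and their counts are to be read against the percentages above. Of the 66 with at least 5 tested members, 33 had a median log2 fold change above 0 under both scalings and 26 below 0 under both. The remaining 7 changed sign, among them kinesins, p53 and its targets, spliceosome proteins, chaperones, glycolysis and amino acid transporters, whose medians lay between -0.14 and -0.04 under TMM and between 0.00 and 0.10 under upper-quartile scaling, so no direction is given for them. The highest medians belonged to lists of innate immunity and the lowest to histones, ribosomal proteins, filaments and the lists of known or proposed miR-137 targets.

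**Figure D2:**
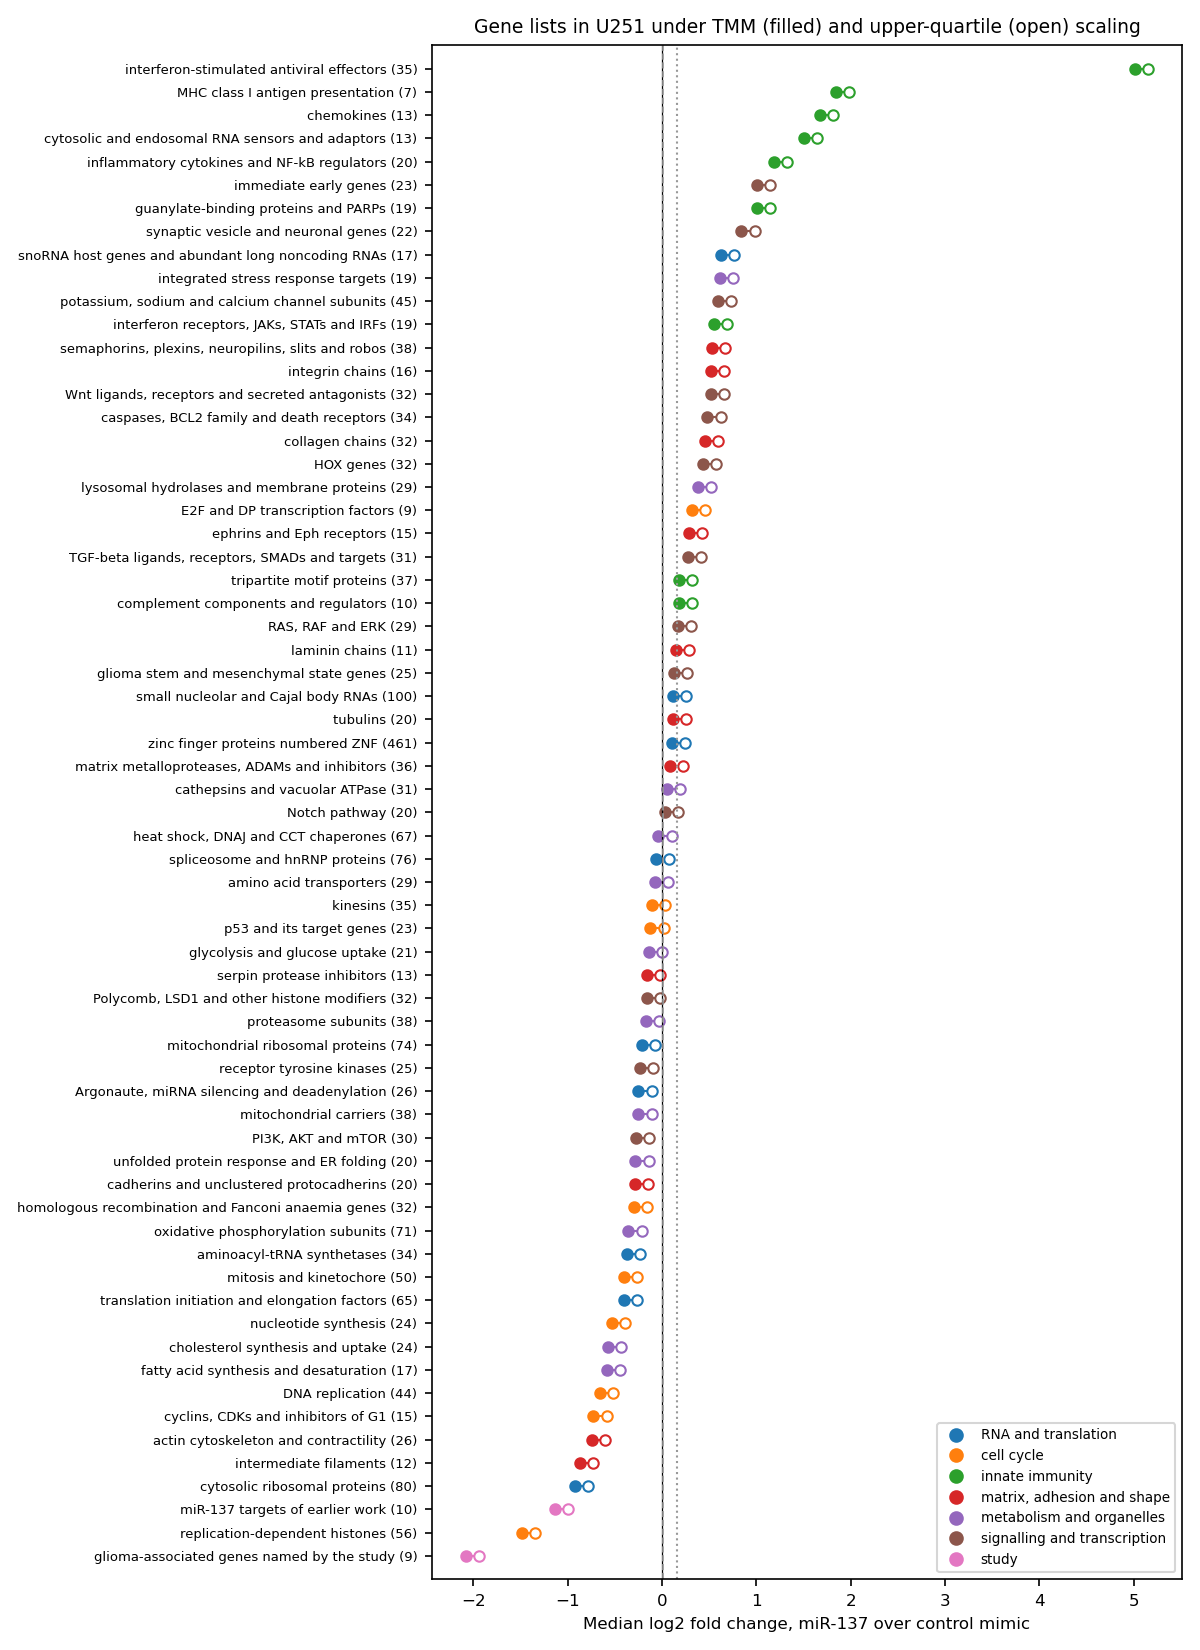
Median log2 fold change of 65 of the 66 gene lists in U251, with the number of tested members in brackets, under TMM (filled) and upper-quartile scaling (open), coloured by theme. The dashed and dotted lines mark the median of all tested genes, 0.02 and 0.16. Interferon-stimulated effectors stand at 5.01 and 5.15, histones at -1.49 and -1.35.

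The 12 genes with the largest falls, among those with at least 50 reads on average in controls and called under both scalings, were of many kinds, among them secreted factors, receptors, a kinase, a transporter relative and a linker histone. CXCL14, a chemokine, held 668 and 990 reads in controls and 13 and 18 with miR-137, a log2 change of -5.21 ± 0.26 (SE, adjusted p = 2.44e-09). SFRP4, a secreted Wnt antagonist, went from 26.5 and 24.7 CPM (counts per 1000000 reads, with TMM-scaled library sizes) to 0.902 and 0.798, a log2 change of -4.90 ± 0.24. SERPINA3, the protease inhibitor alpha-1-antichymotrypsin that reactive astrocytes secrete, went from 8.04 and 9.66 CPM to 0.361 and 0.443. In each of these genes both miR-137 libraries lay below both controls by more than 10 times. GFRA1, a receptor for the growth factor GDNF, stood at 756 and 847 CPM in controls and 56.8 and 44.8 with miR-137 (log2 change -3.98 ± 0.17, adjusted p = 6.33e-10), and CDK6, the kinase that drives cells out of G1, at 1540 and 1602 CPM against 149 and 122 (log2 change -3.53 ± 0.17, adjusted p = 1.62e-09). These were the 2 with the most reads of the 12. KIT, the receptor for stem cell factor, held 129 and 107 reads in controls and 7 and 5 with miR-137 (log2 change -3.76 ± 0.33). The linker histone HIST1H1T held 81 and 48 reads against 5 and 2. EDN2, which encodes endothelin 2, held 46 and 69 reads against 5 and 0, and PGM5, a phosphoglucomutase relative of adhesion sites whose span overlaps LOC572558, held 60 and 57 reads against 1 and 2. STXBP6, a SNARE regulator, SLC16A9, a monocarboxylate transporter relative, and KIAA0114, whose span contains SNORA26, completed the set with log2 changes of -3.87, -3.42 and -3.58. The largest adjusted p among the 12 was 6.44e-05, for EDN2.

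The largest rises formed 1 theme. All 12 are known as interferon-inducible, and 10 of them had 12 or fewer reads in each control library. RSAD2, the antiviral enzyme viperin, held 3 reads in each control and 8309 and 8114 with miR-137, a log2 change of 11.87 ± 0.26 (adjusted p = 2.09e-12). OAS2, a sensor that activates RNase L, held 2 and 5 reads against 5965 and 5437, and XAF1, a pro-apoptotic factor, 4 and 2 against 3231 and 3227. With so few control reads the fitted values depend on the prior count, and the ratio of summed reads was 3920 for RSAD2, with a 95% exact binomial interval of 1800 to 10680 that covers counting error only. CXCL10, a chemokine that attracts T cells and whose span lies within ART3, had 0 reads in both controls and 94 and 144 with miR-137, at least 114-fold higher when 3 reads over the controls are taken as the floor. IFITM1, a membrane protein that blocks viral entry, held 12 reads in each control and 7726 and 9424 with miR-137, OAS1 10 in each against 3403 and 3757, and MX2, a GTPase against retroviruses, 19 and 30 against 5600 and 5761. LY6E held 5 and 4 reads against 2784 and 3164, RTP4 6 and 3 against 648 and 727, and OASL 52 and 52 against 4983 and 6066. RARRES3 held 3 and 1 reads against 209 and 270, a ratio of 172 (interval 66.5 to 632), and LGALS9, a galectin, 2 and 1 against 259 and 319, a ratio of 276 (interval 93.9 to 1342). The 2 miR-137 libraries were close to each other in all 12 genes, the widest gap being that of CXCL10.

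Type I and III interferons bind their receptors, activate the kinases JAK1 and TYK2 and assemble a complex with STAT2 and IRF9 that binds interferon-stimulated response elements in promoters. Upstream, the RNA sensors RIG-I (DDX58), MDA5 (IFIH1) and TLR3 lead to transcription of interferon genes. Every one of 35 interferon-stimulated antiviral effectors was called higher and at least 2-fold so, under both scalings and by the rule of the study. Their log2 changes ran from 2.19 to 11.87 with a median of 5.01 under TMM and 5.15 under upper-quartile scaling, and 5.37 relative to genes of like read number. Together they took 0.0823% and 0.0849% of the reads of the controls and 2.42% and 2.54% of those of the miR-137 libraries. The median member stood at 10.7 and 12.6 CPM in controls and at 427 and 466 with miR-137.

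**Figure D3:**
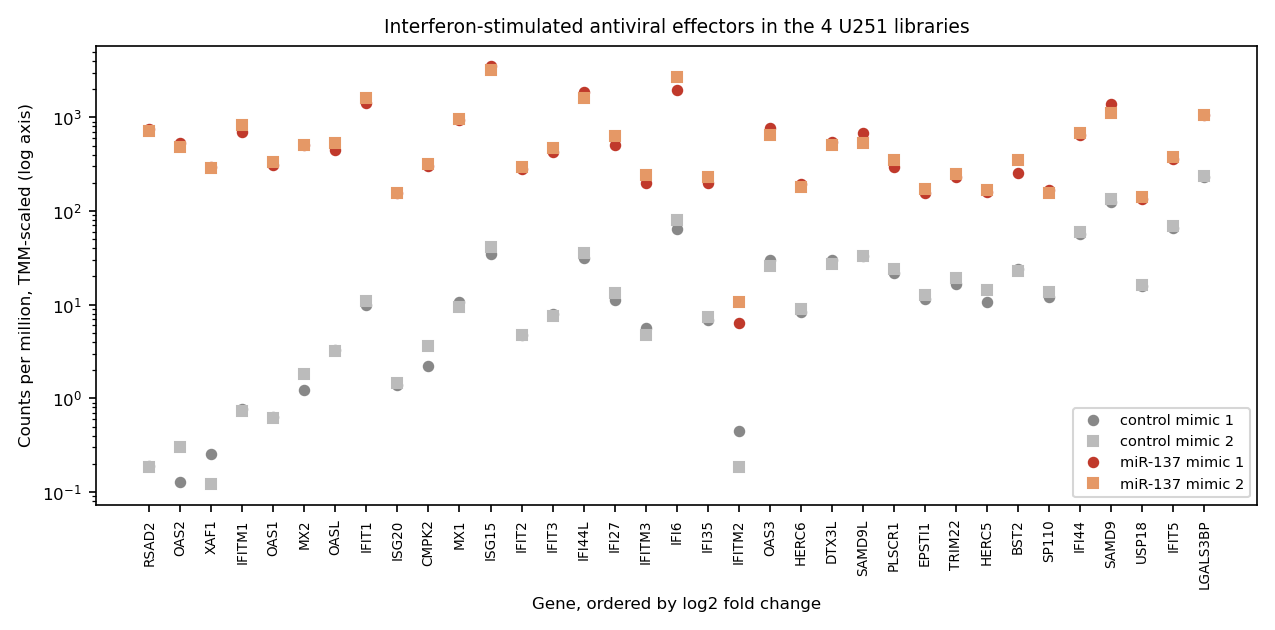
TMM-scaled CPM, on a log axis, of 35 interferon-stimulated effectors in each of the 4 U251 libraries, ordered by log2 fold change. In every gene both miR-137 points lie above both control points, and the 2 libraries of a group nearly coincide.

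The interferon genes themselves were barely detected. Of the 21 that were counted, a single gene passed the filter, IFNE, an interferon of epithelia whose span overlaps LOC554202, at 22 and 20 reads in controls and 37 and 33 with miR-137 (log2 change 1.25 ± 0.30, adjusted p = 0.0027). IFNB1 held 1 read in each control and 5 and 7 with miR-137, a ratio of 8.59 with an interval of 1.91 to 79.0, and IL29, interferon lambda 1, held 0 in both controls and 2 and 6 with miR-137, at least 3.82-fold higher by the same floor. Both were under the filter and were not tested, and a handful of reads is the edge of detection at this depth. The receptor chains did not share a direction. IFNAR1 fell from 53.9 and 47.1 CPM to 34.2 and 37.1 (log2 change -0.50 ± 0.14, adjusted p = 0.0068) and IFNGR1 rose with a log2 change of 0.43 ± 0.14, whereas IFNAR2, IFNGR2 and IL28RA had changes of 0.23, -0.26 and -0.01 that did not pass the test. Of the kinases, JAK1, which overlaps RAVER2, fell with a log2 change of -0.50 ± 0.15 and TYK2, at -0.30, did not pass. The factors downstream rose. IRF9 went from 9.38 and 6.91 CPM to 205 and 224 (4.72 ± 0.17) and STAT2 from 62.3 and 62.2 to 234 and 204 (1.81 ± 0.13). IRF1, which also acts in the interferon gamma response, rose by a log2 change of 2.64, and IRF7, the amplifier of interferon genes, rose from 9 and 7 reads to 20 and 26.

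Of 13 tested RNA sensors and adaptors, 10 rose and 1 fell under both scalings, with a median of 1.51 under TMM and 1.64 under upper-quartile scaling. DDX58 rose from 35.5 and 35.8 CPM to 883 and 780 (4.54 ± 0.16), DHX58, its regulator LGP2, from 2.68 and 3.12 to 72.2 and 71.3, IFIH1 from 22.7 and 20.8 to 241 and 219, and TLR3 from 3.19 and 2.57 to 44.5 and 44.9. The member that fell was MAVS, the mitochondrial adaptor on which RIG-I and MDA5 converge, from 151 and 127 CPM to 64.2 and 67.0 (-1.09 ± 0.13, adjusted p = 1.48e-05).

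Other immune lists moved the same way with more exceptions. All 7 tested genes of MHC class I presentation rose, with a median of 1.84 under TMM and 1.99 under upper-quartile scaling. B2M, the light chain of class I molecules, went from 1072 and 1231 CPM to 4779 and 6362 and NLRC5, the class I transactivator, from 10.2 and 10.2 to 85.8 and 83.4, and the PA28 subunits PSME1, overlapping FAM158A, and PSME2 of the proteasome rose by log2 changes of 2.26 and 1.64. The HLA heavy chains were not analysed here. Of 10 class II genes sought only 4 were counted, and none of these passed the filter. CIITA, the class II transactivator, held 0 and 2 reads in controls and 5 and 3 with miR-137. Among 13 tested chemokines 8 rose and 3 fell. CCL5 went from 2 reads in each control to 79 and 80, whereas CCL2, a monocyte attractant, fell from 102 and 110 CPM to 50.7 and 58.1 and CXCL14 fell as given above. Of 20 inflammatory cytokines and NF-kB regulators 17 rose and 1 fell under TMM, and 19 rose under upper-quartile scaling. The death ligand TNFSF10 rose from 5.55 and 7.76 CPM to 60.8 and 65.4 and the ubiquitin editor TNFAIP3 from 11.4 and 9.17 to 86.3 and 68.9, while TNFAIP2 fell with a log2 change of -0.96 ± 0.13. In the list of guanylate-binding proteins and PARPs 14 of 19 rose and 2 fell, among them GBP4, from 5 reads in each control to 480 and 393, and PARP10, with a log2 change of 3.73, against PARP4, which fell by 0.60 on that scale. Tripartite motif proteins split, with 17 of 37 higher and 9 lower. TRIM22, an antiviral ubiquitin ligase, rose with a log2 change of 3.76 and TRIM21, the cytosolic antibody receptor, with 2.95, and TRIM23 and TRIM6, the latter overlapping TRIM6-TRIM34, fell with -1.08 and -1.15. Complement genes were 5 up and 5 down of 10, with CD55 higher and C5 and CD46 lower.

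As a description of promoters, 300 bases around RefSeq gene starts (250 before and 50 after, GRCh38.p14) were searched on both strands. The letters sought were the core of the interferon-stimulated response element, GAAA followed by any 2 bases and by GAAA again. The letters were found in 20 of the 28 effector promoters that matched by symbol, or 71.4%, against 3.65% of all 27305 promoters and 2.86% of 10419 tested genes with a promoter. They were in 7.81% of the promoters of genes called at least 2-fold higher and in 2.06% of those called at least 2-fold lower. Of the 6 matched promoters of MHC class I presentation genes 5 held them. Other rising lists held them less often, with 3 of 11 promoters of RNA sensors and 5 of 16 of guanylate-binding proteins and PARPs. Among falling lists, none of 39 promoters of replication genes held them. The shares were 5.56% for histones, 6.82% for mitosis and 7.25% for cytosolic ribosomal proteins. A match describes letters in a window and does not show binding. Some effectors are shown as examples with the match in capitals, read 5′ to 3′ on the strand of the gene, so that a match on the other strand reads TTTC.
IFITM1 (chr11:313992-314017, plus strand): aacagcagGAAATAGAAActtaagag
ISG20 (chr15:88638939-88638964, plus strand): acaaactaGAAACTGAAAcagggtcg
MX1 (chr21:41420561-41420586, plus strand): gcagaaatGAAACCGAAActgaattg
ISG15 (chr1:1013376-1013401, plus strand): tgcctcggGAAAGGGAAAccgaaact
IFIT1 (chr10:89392499-89392524, plus strand): agctttagTTTCACTTTCccctttcg
IFI27 (chr14:94110620-94110645, plus strand): gtctgcagTTTCGGTTTCctggaaaa
The log2 changes of these genes were 9.98, 6.74, 6.55, 6.47, 7.19 and 5.54 in the order shown. ISG15, the ubiquitin-like modifier, reached the highest level of the list, from 549 and 670 reads in controls to 38795 and 36453 with miR-137.

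Genes of DNA synthesis fell. The replication-dependent histones, which package newly made DNA and are expressed in S phase, were called lower in 52 of 56 tested members and higher in 1, with 45 at least 2-fold lower. Their median log2 change was -1.49 under TMM, -1.35 under upper-quartile scaling and -1.38 relative to genes of like read number, and their sums were 14060 and 12880 RPM in controls against 5827 and 5400 with miR-137. HIST1H1A, a linker histone, held 122 and 126 reads in controls and 12 in each miR-137 library. The single member that rose was HIST3H2A, from 27.3 and 26.0 CPM to 47.1 and 43.5. Histone genes are near-identical copies of one another, and how shared reads were counted is not stated, so single histone values are uncertain. Of 44 replication genes 30 were lower and 1 higher under TMM and 26 and 2 under upper-quartile scaling, with medians of -0.66 and -0.52, and -0.41 relative to genes of like read number. GINS2, a subunit of the replicative helicase, went from 86.0 and 104 CPM to 30.0 and 31.2 (-1.64 ± 0.14, adjusted p = 6.6e-07), and MCM6, of the same helicase, from 99.5 and 80.1 to 30.4 and 29.1. The exception was ORC6L, the smallest subunit of the origin recognition complex, at 48.1 and 52.1 CPM against 65.5 and 86.5. Of 24 nucleotide synthesis genes 17 fell and 2 rose, with a median of -0.53 and -0.33 relative to like genes. DUT, which removes dUTP, went from 289 and 283 CPM to 103 and 133. ATIC and UMPS, enzymes of purine and pyrimidine synthesis, rose with log2 changes of 1.04 and 0.72.

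The list of G1 regulators was lower as well. Of 15 tested cyclins, CDKs and inhibitors of G1, 9 fell and none rose under either scaling, with a median of -0.73 under TMM and -0.45 relative to like genes. Beside CDK6, cyclin E1 (CCNE1) went from 31.9 and 36.9 CPM to 5.68 and 5.32 (-2.64 ± 0.17). Among 9 E2F and DP transcription factors 3 fell and 4 rose under TMM, and 3 and 5 under upper-quartile scaling, with medians of 0.31 and 0.45. E2F1, the activator of S phase genes, fell from 49.8 and 58.0 CPM to 11.7 and 11.2, with its partner TFDP1 at a log2 change of -0.98, while E2F3 and E2F5, the latter overlapping C8orf59, rose by 0.70 and 0.86. The E2F letters TTTGGCGC or TTTCCCGC were in 17 of 39 matched promoters of replication genes, or 43.6%. They were in 2.31% of all promoters and in 3.55% of those of tested genes. For genes at least 2-fold lower the share was 4.74%, and for genes at least 2-fold higher 1.74%. As examples, 3 helicase subunits that fell are shown with the match in capitals. A match did not go with a fall in every gene of the list, since GINS3, POLE and CDT1 also hold one and had log2 changes of 0.13, 0.04 and 0.09 that did not pass the test.
MCM6 (chr2:135876580-135876603, minus strand): gctttgcaTTTGGCGCgaaatccc
GINS2 (chr16:85688970-85688993, minus strand): tcgccgtgGCGGGAAAacggcggc
GINS1 (chr20:25407670-25407693, plus strand): tttgttcgGCGCCAAAgcgcggag
Of the matched histone promoters 1.85% held the E2F letters and 85.2% held CCAAT, the letters of the CCAAT box, which were in 35.7% of all promoters.

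Mitosis moved less. Of 50 genes of mitosis and the kinetochore 27 were lower and 2 higher under TMM and 22 and 4 under upper-quartile scaling. The median was -0.40 and -0.26, but these genes have many reads and relative to genes of like read number it was -0.18. SKA2, a microtubule-binding kinetochore subunit whose span holds MIR301A and MIR454, went from 206 and 200 CPM to 34.6 and 47.1 (-2.31 ± 0.15) and CENPM from 38.2 and 46.5 to 13.8 and 16.2. Separase (ESPL1) and INCENP rose with log2 changes of 0.50 and 0.43. Of 32 genes of homologous recombination and related repair 14 fell and 1 rose, with EXO1, an exonuclease, at -1.78 ± 0.13 against NBN at 0.33 ± 0.12. Genes of p53 and its targets divided, 9 lower and 7 higher of 23. CCNG1 fell from 353 and 390 CPM to 63.7 and 82.2 and PLK2 from 997 and 968 to 259 and 241, while SESN2 and PLK3, the latter overlapping TCTEX1D4, rose with log2 changes of 1.53 and 1.51.

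**Figure D4:**
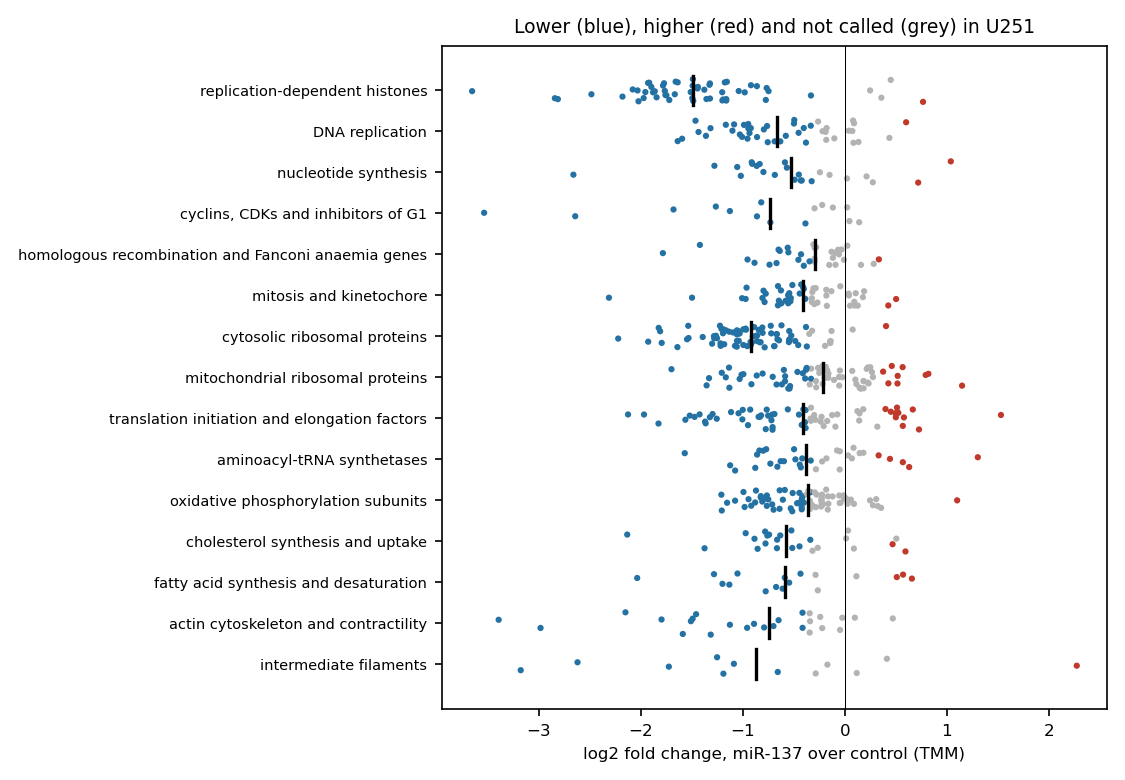
log2 fold change (TMM) of every tested gene in 15 lists of cell cycle, translation, metabolism and cytoskeleton, with blue for called lower, red for called higher, grey for not called and a black bar at the median. Histones lie furthest to the left with a median of -1.49 and ribosomal proteins form a narrow band around -0.92.

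Ribosomal protein genes fell nearly as a block. Of 80 tested cytosolic members 71 were lower and 1 higher under TMM, and 67 and 1 under upper-quartile scaling, with medians of -0.92 and -0.78. As 54 of them lie in the group with the most reads, the median relative to genes of like read number was smaller, -0.63. RPLP0, of the ribosomal stalk, went from 736 and 1026 CPM to 199 and 265 (-1.93 ± 0.19), RPL7 from 81 and 141 reads to 18 and 15, and the only riser was RPL28, from 61.0 and 62.1 CPM to 77.7 and 85.3. The list also differed between the controls, at 24850 and 30180 RPM, with 15800 and 17920 in the miR-137 libraries, so the groups did not overlap but the control spread was wide. These genes have many processed pseudogenes, and reads shared with them make single values uncertain. Mitochondrial ribosomal proteins moved less, with 28 of 74 lower and 9 higher under TMM and 23 and 15 under upper-quartile scaling. MRPL18 and MRPL42 fell with log2 changes of -1.70 and -1.35, and MRPL50 and MRPL12 rose with 1.15 and 0.82. Of 65 translation factors 36 fell and 11 rose. EIF4G2, a scaffold of cap-independent initiation whose span holds SNORD97, fell from 3273 and 3634 CPM to 938 and 829 (-1.97 ± 0.17) and EIF2S3, a subunit of eIF2, from 703 and 797 to 166 and 178 (-2.12 ± 0.14). EIF2AK2, the RNA-activated kinase PKR that is also an interferon-stimulated gene, rose with a log2 change of 1.53 from 111 and 110 CPM in controls. Aminoacyl-tRNA synthetases were lower in 18 of 34 and higher in 5, with CARS2 at -1.57 and the interferon-inducible WARS at 1.30. By contrast, none of the 17 listed snoRNA host genes and abundant long noncoding RNAs fell and 11 rose. Among these were MEG3, whose span holds MIR770, at 92 and 53 reads in controls and 346 and 457 with miR-137, and NEAT1. NEAT1 held 793 and 287 reads in controls, which were far apart, against 652 and 1193. Of 11 tested genes with symbols of the stem SNHG, not all in that list, 1 fell and 5 rose under TMM. Of 100 tested small nucleolar and Cajal body RNAs 2 fell and 7 rose, and 79 of them were in the group with the fewest reads. SNORD25, which lies in SNHG1, fell with a log2 change of -1.40 ± 0.30, while SNHG1 itself rose with 0.47.

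The list of miRNA machinery itself was mixed, with 9 of 26 lower and 6 higher. EIF2C1, now called AGO1, an Argonaute that carries miRNAs, went from 275 and 248 CPM to 92.9 and 84.3 (-1.56 ± 0.13) and the deadenylase CNOT7 from 214 and 226 to 85.7 and 92.9. The helicase MOV10 and the GW182 protein TNRC6C rose with log2 changes of 1.72 and 1.20.

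Lipid synthesis and respiration were lower. Cholesterol genes were called lower in 16 of 24 and higher in 2, with medians of -0.58 and -0.44 under the 2 scalings and -0.47 relative to genes of like read number. INSIG1, the partner of the sterol sensor, went from 294 and 335 CPM to 119 and 124. The regulator SREBF1, which overlaps RAI1 and MIR33B, rose with a log2 change of 0.47. Of 17 genes of fatty acid synthesis 11 fell and 3 rose, with a median of -0.59 and -0.41 relative to like genes. The desaturases SCD, from 471 and 482 CPM to 128 and 104, and FADS1, with a log2 change of -1.28 ± 0.13, fell, while the synthase FASN was 152 and 85.2 in controls and 169 and 204 with miR-137. Among 71 subunits of oxidative phosphorylation 35 were lower and 1 higher under TMM and 26 and 5 under upper-quartile scaling, with medians of -0.36 and -0.21 and, relative to like genes under TMM, also -0.21. Few moved far, 4 being at least 2-fold lower, with UQCRC1 of complex III and ATP5F1 of the ATP synthase, which overlaps WDR77, at -1.21 each, and NDUFA6 of complex I the exception at 1.10. As with the ribosome the controls differed from each other, at 7655 and 9045 summed RPM, and here the miR-137 libraries, at 6215 and 7467, did not overlap them.

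Organelle and stress lists were split. In the integrated stress response list 10 of 19 rose and 7 fell, with the hormone STC2 and the phosphatase subunit PPP1R15A at 1.67 and 1.58 and the folate enzyme MTHFD2 and the serine enzyme PSPH at -1.71 and -1.31. In the unfolded protein response list 9 of 20 fell and 3 rose. Calnexin (CANX) went from 3113 and 3270 CPM to 1317 and 1221 and its neighbour in function DNAJC3 fell by 1.33 on the log2 scale, whereas the chaperone HSPA5 rose from 214 and 126 to 398 and 384 and the ubiquitin ligase SYVN1, overlapping MRPL49, with 1.91. Lysosomal genes rose in 13 of 29 and fell in 8. SGSH, a heparan sulfatase, held 17 and 9 reads in controls and 118 and 153 with miR-137, and LAMP2, a lysosomal membrane protein, fell from 220 and 197 CPM to 86.9 and 88.5. Among cathepsins CTSS, which trims class II peptides, rose from 7 and 15 reads to 174 and 217 and CTSH fell by 2.01 on the log2 scale. Of 4 tested metallothioneins 3 fell and MT2A rose from 24.4 and 27.0 CPM to 120 and 132. Glycolysis was even, 5 of 21 each way, with LDHA at -1.22 and the regulator PFKFB4 at 1.82. The proteasome was also mixed, 8 lower and 5 higher of 38 under TMM, and its largest rises were the 2 PA28 subunits named above. Mitochondrial carriers fell in 16 of 38 and rose in 9. SLC25A5, an ADP/ATP carrier, fell with a log2 change of -1.77 and overlaps LOC100303728, and SLC25A37, an iron importer, rose with 1.39.

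Actin and intermediate filament genes were lower, and tubulin genes did not share a direction. Of 26 tested genes of actin and contractility 17 fell and none rose under TMM, with 15 and 1 under upper-quartile scaling, a median of -0.74 and -0.61, and -0.48 relative to genes of like read number. Calponin 2 (CNN2) went from 300 and 315 CPM to 38.9 and 39.0 (-2.98 ± 0.14, adjusted p = 1.29e-09) and TAGLN, a smooth muscle actin binder, from 93 and 90 reads to 4 and 8. Intermediate filaments fell in 7 of 12 and rose in 1. GFAP, the filament by which astrocytes and many gliomas are recognised, fell from 31.1 and 32.8 CPM to 3.79 and 3.28 (-3.18 ± 0.18) and the neurofilament NEFL from 1513 and 1577 to 240 and 263 (-2.62 ± 0.15). Of the 10 glioma and astrocyte markers 6 fell and 1 rose. CDC42, which organises filopodia and polarity, fell from 499 and 564 CPM to 89.5 and 91.2 (-2.56 ± 0.14) and its effector PAK2 by 1.58 on the log2 scale, while the neuronal PAK3 rose from 44 and 70 reads to 312 and 245. Tubulins were 5 lower and 7 higher of 20 under TMM, with medians of 0.11 and 0.25 under the 2 scalings and TUBA1B at -1.31. Their summed reads were lower, at 3738 and 4174 RPM in controls against 3127 and 3253 with miR-137.

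Surface and matrix lists were divided. Collagen chains rose in 15 of 32 and fell in 7, with COL13A1 from 26 and 21 reads to 108 and 157 and COL6A3 at 1.70 against COL14A1 at -0.99. Integrins divided by chain. ITGA2 and ITGA5, collagen and fibronectin receptors, rose from 59.2 and 58.4 CPM to 479 and 352 and from 103 and 91.7 to 305 and 268, while ITGB4, the laminin receptor of hemidesmosomes, fell from 102 and 76.7 to 21.0 and 26.4 and ITGAV by 1.23 on the log2 scale. Laminin LAMA5 was 43.5 and 16.3 CPM in controls and 141 and 179 with miR-137, and FN1, fibronectin, 173 and 149 against 859 and 524. Among metalloproteases 13 of 36 rose and 8 fell. MMP13 and MMP1, collagenases, held 10 and 7 and 10 and 25 reads in controls and 222 and 208 and 72 and 76 with miR-137, and the membrane enzymes MMP15 and MMP24 fell with -2.01 and -1.19. Cadherins had 7 lower and 6 higher of 20, with CDH3 at -3.02 ± 0.26 and CDH6 at 2.22 ± 0.15. Guidance genes rose in 22 of 38 and fell in 8, with a median of 0.53 and 0.67. SEMA4B rose from 28.1 and 19.4 CPM to 100 and 98.9, whereas the attractant NTN4 fell from 52.1 and 56.7 to 12.3 and 10.1 and SEMA3C from 487 and 506 to 194 and 149. Of 15 ephrins and Eph receptors 3 fell, led by EPHA5 at -1.98 ± 0.14, and 5 rose.

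Growth factor signalling moved at particular members. Of 25 tested receptor tyrosine kinases 9 fell and 8 rose, and beside KIT the largest fall was FGFR2, from 28.1 and 23.7 CPM to 2.43 and 2.48 (-3.39 ± 0.20). In the TGF-beta list 12 of 31 rose and 6 fell, and the ligands went apart. TGFB2 fell from 401 and 418 CPM to 101 and 93.4 (-2.08 ± 0.13) and TGFB3, which overlaps BCYRN1, by 1.76 on the log2 scale, while TGFB1 rose from 17.7 and 10.1 to 41.6 and 66.5. In the Wnt list 17 of 32 rose and 9 fell. WNT5A, a ligand of the planar polarity branch, fell from 162 and 169 CPM to 16.5 and 15.6 (-3.36 ± 0.14, adjusted p = 5.44e-10), and of the secreted antagonists SFRP4 fell and SFRP1 rose from 182 and 202 to 566 and 451. Of the Notch pathway, the ligase MIB1, whose span holds MIR133A1 and MIR1-2, went from 448 and 443 CPM to 143 and 110 and the ligand DLL1 from 16 and 12 reads to 57 and 51. PI3K and AKT genes were lower in 11 of 30 and higher in 7. The kinase AKT2, overlapping MIR641, fell from 179 and 204 CPM to 40.1 and 46.7 (-2.14 ± 0.14) and the phosphatase INPP4B by 2.45 on the log2 scale. In the RAS and ERK list 10 of 29 rose and 8 fell, with NRAS at -1.37 ± 0.14 and the feedback inhibitors SPRY4 and DUSP1 at 2.10 and 1.47. Immediate early genes rose in 17 of 23 and fell in 1, with a median of 1.01 under TMM, 1.15 under upper-quartile scaling and 0.86 relative to genes of like read number. NR4A2, a nuclear receptor, held 16 and 15 reads in controls and 106 and 91 with miR-137, and KLF4 43 and 50 against 169 and 195.

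Death, chromatin and neuronal lists followed. Of 34 caspases, BCL2 family members and death receptors 19 rose and 7 fell. Inflammatory caspase 1 (CASP1) held 3 and 2 reads in controls and 44 and 58 with miR-137. Polycomb and other histone modifiers were 13 lower and 9 higher of 32 under TMM and 8 and 11 under upper-quartile scaling, with the demethylase KDM6B at 2.96 and HDAC1 at 1.61 against RBBP4, overlapping SYNC, at -1.12. HOX genes rose in 12 of 32 and fell in 2, and as 18 of them lie in the group with the fewest reads, where 37.5% of all genes were called higher, the median of 0.44 became 0.096 relative to like genes. Ion channel subunits rose in 22 of 45 and fell in 9, with a median of 0.59 under TMM, but 24 of them lie in the group with the fewest reads and relative to genes of like read number the median was 0.25. KCNF1 held 7 and 10 reads in controls and 51 and 71 with miR-137. Synaptic and neuronal genes rose in 12 of 22 and fell in 4, with a median of 0.84 and 0.51 relative to like genes. The postsynaptic NLGN2 rose from 75 and 49 reads to 188 and 263, while NLGN4X fell from 116 and 119 CPM to 36.7 and 33.3. Zinc finger proteins numbered ZNF, 461 tested, were called lower in 70 and higher in 125 under TMM and in 43 and 170 under upper-quartile scaling.

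The genes that earlier work and the study had linked to miR-137 were examined as a group, though those named by the study were picked with these libraries in view and are not independent evidence. All 9 genes of the latter list fell under both scalings, 8 of them at least 2-fold, with a median of -2.08 and -1.94. Beside AKT2, CDC42, CDK6, KIT and TGFB2 they include YBX1, from 238 and 294 CPM to 74.8 and 83.9 (-1.74 ± 0.14), MTDH, from 784 and 874 to 324 and 296, and the RNA-binding MSI1, from 86 and 81 reads to 23 and 42 (-0.84 ± 0.27, adjusted p = 0.017). Of 10 targets taken from earlier work 9 fell. CDK6 is in both lists, and the study also cites MSI1 as an earlier target, so the counts are not separate. Others that fell were the demethylases KDM1A and KDM5B with -1.25 and -1.02 and GLIPR1, overlapping KRR1, with -1.91. ESRRA, overlapping TRMT112, fell with -1.52, CSE1L with -0.97 and EZH2 with -0.52. The tenth, PTGS2, cyclooxygenase 2, held 35 and 25 reads in controls and 119 and 116 with miR-137, a log2 change of 2.48 ± 0.24.

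Sorting genes by the letters before the first digit of their symbols gave 215 groups with at least 8 tested genes, 64 with a median below 0 under both scalings, 118 above 0 under both and 33 that changed sign. The 6 lowest medians under TMM were those of HIST (-1.49), the elongation factors EEF (7 of 9 lower, 1 higher), MCM (-0.94), RPS (-0.88), RPL (-0.75) and COMMD (-0.62), the last a family of regulators of copper transport and ubiquitin ligases in which 8 of 10 genes fell and 1 rose. The RPS stem also takes in the S6 kinases. The 6 highest were IFI (9 of 9 higher), PCDHGB (1.29), ITGA (1.16), PCDHGA (1.12), ABCA (1.12) and SP (1.01). Relative to genes of like read number PCDHGB, PCDHGA and ABCA stood at 0.77, 0.61 and 0.60, below the stem TNFRSF at 1.06, so their rank depends on that correction. The stem ITGA leaves out ITGAV, which fell as given above and whose symbol holds no digit. The stem SP mixes the SP1 family of zinc fingers with the interferon-inducible nuclear body proteins SP100 and SP110, which had log2 changes of 2.82 and 3.64. The gamma protocadherins share their last exons, so reads on them cannot be assigned to single genes, and the median PCDHGB gene had 23.3 reads.

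Comparison with U343 asked whether the response was shared by another glioblastoma line. The U343 libraries were made with another kit and are deeper, so levels are not compared and only the response is, and line and kit cannot be told apart. Of 15550 genes tested, the response was lower in U251 for 1945 (12.5%) and higher for 1977 (12.7%). The libraries labelled U343 miR-137 did not resemble each other in interferon-stimulated genes. The 35 effectors summed to 1509 and 1572 RPM in the U343 controls and to 1548 in miR-137 replicate 1, at the level of the controls, but to 23840 in replicate 2, beside 24150 and 25350 in the U251 miR-137 libraries. With all 8 libraries 4 of the 35 responded more in U251 and none less. Without U343 miR-137 replicate 2 all 35 responded more in U251, with a median difference of 4.78 on the log2 scale, and without replicate 1 18 responded more and 9 less. RNA sensors changed in the same way, from 1 of 15 responding more with all libraries to 12 without that replicate. The size of the difference between the lines in interferon genes therefore depends on which U343 library is used. For the effectors the median difference stayed positive, at 1.66 with all libraries and 0.74 without replicate 1. For RNA sensors it was 0.01 with all libraries, -0.46 without replicate 1 and 1.47 without replicate 2.

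**Figure D5:**
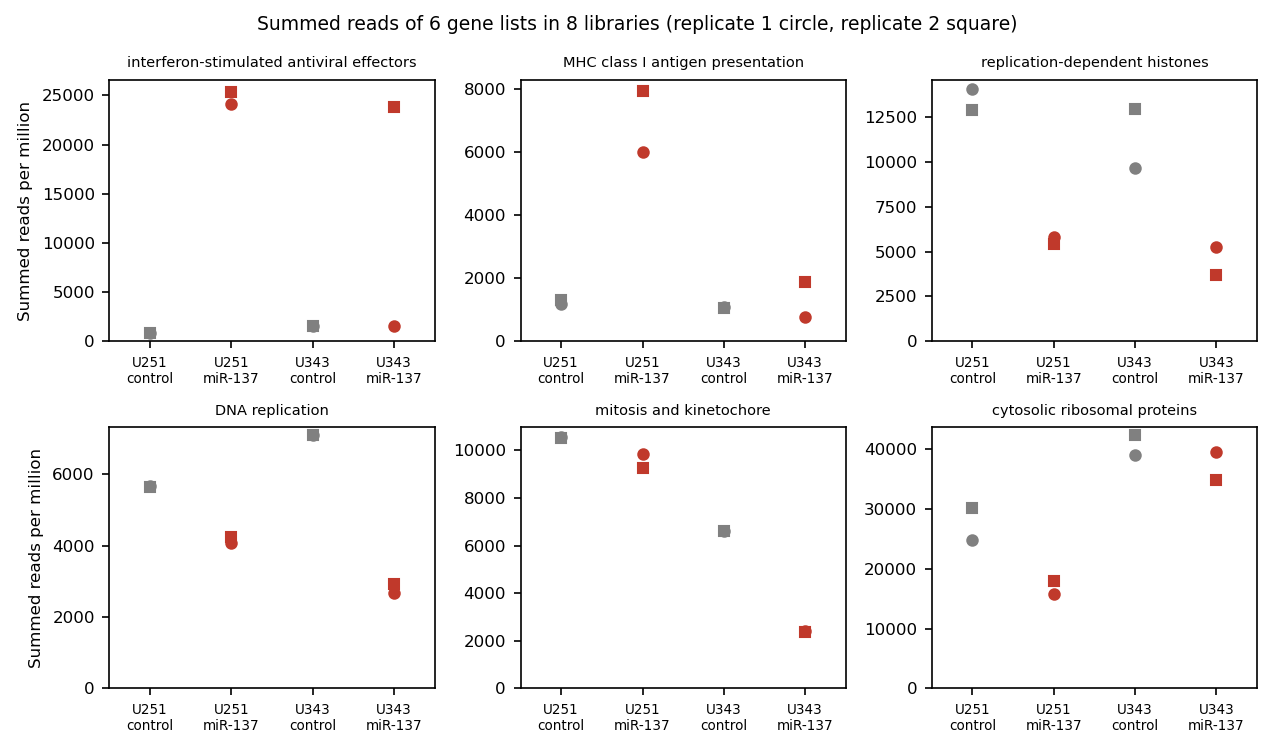
Summed RPM of 6 gene lists in the 8 total RNA libraries of U251 and U343, circles for replicate 1 and squares for replicate 2, grey for control and red for miR-137. In interferon-stimulated effectors the U343 miR-137 libraries lie at 1548 and 23840. Mitosis genes sum to 6617 and 6604 in the U343 controls and to 2414 and 2368 with miR-137. In U251 they sum to 10560 and 10520 in controls and to 9852 and 9276 with miR-137, without TMM scaling.

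With all libraries, some other lists were called in a share of their genes above that of all genes. The share of all genes in each direction was not determined without U343 miR-137 replicate 2. List counts given without it therefore have no such reference. The response of ribosomal protein genes was lower in U251 for 52 of 83 and higher for 2, and without U343 miR-137 replicate 2 for 57 and 2 of 82. Actin genes responded lower in U251 in 16 of 27 and higher in none, and 15 and 1 without the replicate. In the reverse sense, 42 of 50 mitosis genes responded higher in U251 than in U343 and none lower, with 43 and none without the replicate. Their sums went from 10560 and 10520 RPM to 9852 and 9276 in U251 and from 6617 and 6604 to 2414 and 2368 in U343. Replication genes likewise responded higher in U251 in 24 of 44 and lower in 1, and in 30 and 1 without the replicate. Histones did not keep a direction. With all libraries 1 of 59 responded lower in U251 and 3 higher, without U343 miR-137 replicate 2 17 and 4, and without replicate 1 none and 14. Of the 9 genes named by the study 6 responded lower in U251 and none higher with all libraries. Their median difference was -0.95, and -0.99 without replicate 2. In U343 itself 8 of these genes were tested, of which 6 were called lower and 2 higher.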

How the data were processed

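Total RNA was depleted of ribosomal RNA, primed with random hexamers and made into Nextera libraries. The authors aligned reads to hg18 with RMAP and deposited counts per gene on RefSeq models with isoforms merged. Treatment of reads with several matches is not given in the sources used here, the preparation does not mark strand, and the additional U251 replicate mentioned in the methods and the 8 precipitation libraries were not analysed here. One symbol stood on 2 lines, of which the first was kept.

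Counts were tested with edgeR 4.0.16 (glmQLFit and glmQLFTest, TMM, filterByExpr, Benjamini-Hochberg, threshold 0.05) in R 4.3.3, with 2 libraries per group. CPM use TMM-scaled library sizes. SE is the absolute log2 change divided by the square root of F. Alternatives were upper-quartile scaling, DESeq2 1.42.0, no filter, a mean of at least 50 reads, a replicate block, leaving out each library, the study's rule, and, added after seeing the data, subtracting the median of genes of like read number and, for lists, leaving out a U343 miR-137 library. The test was checked on simulated data in which few genes changed, so the check does not cover changes as wide as those found here. Replicates differed by more than sampling noise, with a mean chi-square per gene of 9.04 in controls and 8.00 with miR-137.

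Members and lists were chosen with earlier results of these data known. Genes named are the 12 largest falls and rises over all genes and up to 2 each way per list, called under both scalings, averaging 50 reads or more in whichever group was higher and with 1 direction in all 4 pairs, the genes of both target lists and the defining members of the interferon pathway. CD68, PTPRC, ISG15, ISG20, MX1, IFIT1, IFI27, GINS1, GINS3, POLE, CDT1, SP100 and SP110 were named after their values were seen.

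The depth limits genes of few reads. Intervals and the floor of 3 counts cover counting error only. Some items are not reported here.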

Additional observations from a re-analysis of the deposited data

Results flagged for a closer look

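The response to miR-137 differed between U251 and U343 for 3922 of 15550 genes by edgeR's test of the interaction. It differed for 14 of the 24 genes with the largest changes in U251. These 24 were chosen by their change in the same U251 libraries. That choice favours a larger response in U251, so their count and differences are descriptions. Among the falls, the log2 response in U251 minus that in U343 was -7.55 for EDN2, -6.14 for SFRP4, -5.85 for PGM5, -5.37 for KIT, -4.03 for STXBP6, -3.08 for KIAA0114, -2.85 for GFRA1, -2.18 for CXCL14, -1.90 for SERPINA3, -1.23 for SLC16A9 and -0.75 for CDK6. EDN2 rose in U343, from 12 and 11 reads to 188 and 93, while CDK6 and CXCL14 fell in both lines. KIT held 1 and 2 reads in the U343 controls, so its difference there is imprecise (SE 0.95). Among the rises the difference was 8.07 for LY6E, 7.78 for XAF1 and 6.32 for RARRES3. In each of these 3 genes the library labelled U343 miR-137 replicate 2 stood above both U343 controls and replicate 1 did not stand above both, with 6708 reads on LY6E there against 1349 and 939 in the controls and 1287 in replicate 1. Without that library all 12 of the largest rises differed between the lines, against 3 with it, with differences from 6.39 for OASL to 12.79 for CXCL10, while SERPINA3, at -1.56, no longer passed the test (adjusted p = 0.0559).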

How the results depend on the processing

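The lower and higher counts in U251 stayed within 1.5 times of 3780 and 3749 under upper-quartile scaling, DESeq2 (3397 and 2928), no filter (3481 and 2747), a mean of at least 50 reads (3233 and 3369) and leaving out a library (3026 to 3529 and 2814 to 3391, a lone sample being taken to vary like the others). The study's rule took 448 and 1248, and with a mean of at least 50 reads 1134 genes were at least 2-fold higher. At least 2-fold, leaving out a library gave 1101 to 1344 lower and 1346 to 1784 higher. The replicate numbers of the groups are shared without a stated pairing, and deviations of same-numbered libraries correlated at 0.06, so no pairing is taken. A replicate block gave 3929 and 3766. The count of genes that differed between the lines ran from 1877 to 5676 when a library was left out, the former without U343 control replicate 2 and the latter without U343 miR-137 replicate 2. It was 2028 without U251 control replicate 2, 2023 without U343 control replicate 1, 2536 and 2598 without U251 miR-137 replicates 1 and 2, and 5030 without U343 miR-137 replicate 1. The cause was not tested. List medians that changed sign, among others nearer to 0, included those of kinesins (0.033 under upper-quartile scaling, 0.092 relative to genes of like read number), spliceosome proteins (0.071 and 0.21), the proteasome (0.18 relative to like genes), glycolysis (0.12), complement (-0.30 with at least 50 reads), cadherins (0.41 without the filter) and serpins (0.79 without the filter, 0.33 with at least 50 reads, and from -0.15 to 0.14 when a library was left out). Of 270 named gene results with a test, which were largely chosen for 1 direction in all pairs, DESeq2 ended the call of 6, no filter that of 15, and leaving out a library that of 4 to 9. Depth limits the interferon genes and other genes with few reads.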

Other observations

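Some gene groups outside the lists moved as groups, and they were chosen after their values were seen, so their counts are descriptions. The peptidylarginine deiminases, which turn arginine into citrulline and lie side by side on chromosome 1, were all lower in the 4 members tested of 5, under both scalings, with log2 changes from -3.27 to -0.72. PADI2 held 6493 and 7401 reads in controls and 508 and 497 with miR-137, and PADI3 held 5680 and 6713 against 495 and 510. The apolipoprotein L genes on chromosome 22, which are known as inducible by cytokines, were higher in all 4 tested of 6, with a median log2 change of 4.78 and a highest of 6.14. The SP100 family of nuclear body proteins on chromosome 2 was higher in all 3 tested of 4, from 1.73 to 3.64. TNFRSF11B, the decoy receptor osteoprotegerin, held 31 and 27 reads in controls and 413 and 505 with miR-137, a log2 change of 4.49.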
